A study of Mus musculus with 2 samples.

Results

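Regulatory T cells (Treg cells) were described here through 10 genes, of 32245 gene symbols counted, that mark the identity of these cells or carry out their suppressive functions. The genes were chosen by symbol: Foxp3, Ikzf2, Il2ra, Izumo1r, Lrrc32, Itgb8, Nrp1, Il10, Ebi3 and Entpd1. All 10 were found, and each was counted in every cell class of 2 single-cell RNA libraries. The Tdg_KO library carries the genotype label Tdg KO and the sample title KPT, and the Tdg_WT library carries the genotype label WT and the title KP. Both hold live CD45+ immune cells, sorted after a Percoll gradient from subcutaneous KP tumours of mice on day 14 after inoculation, which the labels call allogroft tumours. The labels do not say whether the tumour cells or the host carry the Tdg genotype, and mouse strain and age are not given in them. CD45 is the common surface protein of white blood cells, and Tdg encodes thymine DNA glycosylase, an enzyme of base excision repair and DNA demethylation.

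Treg cells restrain other immune cells, and in tumours they are often abundant and activated. The transcription factor Foxp3 sets their identity, together with partners such as the Ikaros family factor Helios (encoded by Ikzf2). They take up IL-2 through a receptor that contains CD25 (encoded by Il2ra), release TGF-beta from its latent form, secrete inhibitory cytokines and break down extracellular ATP, and each of the other genes encodes a protein of 1 of these functions or a surface marker of the cells.

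The Tdg_KO library held 5896 barcodes and the Tdg_WT library 5604, and 5693 Tdg_KO and 5504 Tdg_WT barcodes passed the filters, with a median of 6419 UMIs per cell in Tdg_KO and 5378 in Tdg_WT (molecular identifiers that tag 1 captured RNA each). There is 1 library per genotype, so no test between genotypes was possible. Levels are counts per 1e6 UMIs of the cell class (CPM), and ratios are Tdg_KO over Tdg_WT. All intervals are 95%, and intervals and limits cover counting error only, not the spread between mice. Class names such as Treg-like rest on marker genes. The 10 genes took no part in the clustering, and of them only Foxp3 was among the markers that named the Treg-like class. Barcodes with markers of 2 cell lineages made up 11.3% of Tdg_KO and 6.58% of Tdg_WT cells, and these mixed barcodes were kept out of every class. The libraries shared 8 barcodes. Tdg itself had 1385 UMIs (26.5 CPM) in Tdg_KO and 993 UMIs (25.1 CPM) in Tdg_WT cells. The deleted part of Tdg is not given in the labels, so counts at the 3′ end of its RNA check neither label.

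The Treg-like class held 489 cells in Tdg_KO, 8.59% of the kept cells (7.87% to 9.35%), and 466 cells in Tdg_WT, 8.47% (7.74% to 9.23%). The ratio of the shares was 1.01 (0.892 to 1.15). Among CD4 T-like and Treg-like cells together, 42.8% (39.9% to 45.7%) were Treg-like in Tdg_KO and 39.3% (36.5% to 42.1%) in Tdg_WT. These shares left out a cluster of 215 Tdg_KO and 102 Tdg_WT barcodes that carried Treg markers together with genes of a second lymphocyte subset, at a median of 15656 UMIs in Tdg_KO and 14866.5 in Tdg_WT. With that cluster counted as Treg-like, an alternative added after the data were seen, the ratio of the shares was 1.20.

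Foxp3 (chromosome X, 7573644 to 7595245, plus strand, mm10/GRCm38) encodes the forkhead transcription factor that defines the Treg lineage. The 2 genes whose upstream sequence is shown first, Foxp3 and Il2ra, were high in Treg-like cells, and the third, Nrp1, was not highest there. The sequences are RefSeq promoter sequence of GRCm38.p6, read 5′ to 3′ on the strand of the gene. Capitals mark 2 short cores searched on both strands, the forkhead core TAAACA and the NFAT core GGAAA, which reads TTTCC on the opposite strand. The Foxp3 stretch (chrX:7579426-7579566, plus strand) lies upstream of a RefSeq start, within the longer annotated gene and within the overlapping non-coding gene Flicr, and it was ended before the first annotated exon of Foxp3 in it. The Nrp1 stretch also lies upstream of a RefSeq start and within the longer annotated gene, which starts at 128358604.
Foxp3: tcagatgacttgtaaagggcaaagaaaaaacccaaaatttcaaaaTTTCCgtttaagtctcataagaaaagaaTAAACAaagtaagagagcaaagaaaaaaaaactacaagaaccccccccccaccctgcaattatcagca
Il2ra (chr2:11642542-11642791, plus strand): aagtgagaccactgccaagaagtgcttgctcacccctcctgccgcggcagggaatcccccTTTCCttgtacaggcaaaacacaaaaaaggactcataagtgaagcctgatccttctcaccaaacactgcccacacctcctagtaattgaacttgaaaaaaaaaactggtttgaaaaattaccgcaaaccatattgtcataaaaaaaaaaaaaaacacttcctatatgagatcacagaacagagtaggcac
Nrp1 (chr8:128358823-128359072, plus strand): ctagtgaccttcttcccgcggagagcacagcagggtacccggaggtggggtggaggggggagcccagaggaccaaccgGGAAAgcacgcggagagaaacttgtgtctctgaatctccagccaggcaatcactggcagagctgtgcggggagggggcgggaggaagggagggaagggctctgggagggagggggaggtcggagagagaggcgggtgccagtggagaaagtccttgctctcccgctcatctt
The forkhead core in the Foxp3 stretch began 177 bases before the start, and the NFAT core 205 bases before it. Of 32851 promoter windows of 250 bases, 12.03% held the forkhead core, 14.0% held the RUNX core TGTGGT, searched in the same way, and 55.6% held the NFAT core. The Il2ra and Nrp1 stretches held 1 NFAT core each and neither other core. A second RefSeq window of Foxp3 (chrX:7580233-7580482), not shown here, held 1 NFAT core and neither other core. A match describes the letters and is not evidence of binding. Sequences were found for 7 of the 10 genes, and Ikzf2, Lrrc32 and Il10 were among those without one.

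Foxp3 stood at 400 CPM in Tdg_KO Treg-like cells (1286 UMIs in 394 of 489 cells) and 410 CPM in Tdg_WT Treg-like cells (1178 UMIs in 372 of 466 cells). The ratio was 0.976 (0.901 to 1.06). In both libraries this was the highest class, above every other named class by more than the counting intervals. Foxp3 was among the markers that named the class, so this rank was partly set by the naming. Treg-like cells were thinned to 2000 UMIs each, which left out 4.50% of Tdg_KO and 8.37% of Tdg_WT cells, and 52.7% of the Tdg_KO and 51.99% of the Tdg_WT cells then had a Foxp3 UMI. B-like cells, which do not use Foxp3, had a Foxp3 UMI in 0 of 145 Tdg_KO cells, which allows a share of up to 2.07% (3 counts over the cells), and in 0.866% of 231 Tdg_WT cells, at medians of 3592 UMIs in Tdg_KO and 3710 in Tdg_WT. Macrophage-like cells had none in 280 Tdg_KO and 229 Tdg_WT cells, which by the same 3 counts allows up to 1.07% in Tdg_KO and 1.31% in Tdg_WT. Foxp3 overlaps Flicr on the same strand and Ppp1r3f and Ccdc22 on the other, and how reads in the overlaps were assigned is not given in the sources used here.

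Ikzf2 (chromosome 1, 69531214 to 69687245) encodes Helios, which stabilises the Treg programme and is also used by some CD8 and NK lineage cells. It had 1323 CPM in Tdg_KO Treg-like cells and 1259 CPM in Tdg_WT Treg-like cells, a ratio of 1.05 (1.01 to 1.10). The next class in both libraries was an unnamed T cell cluster led by Klra1, Klra6 and Klra7, genes of Ly49 receptors, with 812 CPM in Tdg_KO and 612 CPM in Tdg_WT. The ratio in that cluster was 1.33 (1.25 to 1.41). CD8 T-like cells followed with 444 CPM in Tdg_KO and 355 CPM in Tdg_WT, a ratio of 1.25 (1.15 to 1.36). Of all Ikzf2 UMIs, 18.0% in Tdg_KO and 27.6% in Tdg_WT lay in Treg-like cells.

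Il2ra (chromosome 2, 11642807 to 11693193) encodes CD25, the alpha chain of the high-affinity IL-2 receptor. Its level was 714 CPM in Tdg_KO and 719 CPM in Tdg_WT Treg-like cells, a ratio of 0.994 (0.936 to 1.06). ILC2-like cells, the innate lymphoid class that makes type 2 cytokines, came next with 519 CPM in Tdg_KO (61 cells) and 347 CPM in Tdg_WT (53 cells). Gamma-delta T-like cells had 181 CPM in Tdg_KO and 223 CPM in Tdg_WT, and CD4 T-like cells had 65.6 CPM in Tdg_KO and 80.8 CPM in Tdg_WT. The order Treg-like, ILC2-like, then the rest held beyond counting error in both libraries.

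Izumo1r (chromosome 9, 14885814 to 14903949) encodes folate receptor 4, a surface marker of mouse Treg cells. It stood at 236 CPM in Tdg_KO and 241 CPM in Tdg_WT Treg-like cells, and the ratio was 0.978 (0.881 to 1.09). No other named class with at least 100 cells in both libraries exceeded 36.3 CPM in Tdg_KO or 26.0 CPM in Tdg_WT, both in CD8 T-like cells. After thinning, 32.5% of Tdg_KO and 34.0% of Tdg_WT Treg-like cells had an Izumo1r UMI, against 5.40% of Tdg_KO and 3.16% of Tdg_WT CD4 T-like cells.

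Lrrc32 and Itgb8 encode proteins that handle latent TGF-beta: GARP, which holds it on the Treg surface, and the beta 8 integrin chain, which pairs with the alpha V chain to activate it. Lrrc32 (chromosome 7, 98489283 to 98502181) had 111 CPM in Tdg_KO and 108 CPM in Tdg_WT Treg-like cells, a ratio of 1.03 (0.882 to 1.20). Itgb8 (chromosome 12, 119158022 to 119238802) had 75.2 CPM in Tdg_KO (242 UMIs) and 102 CPM in Tdg_WT Treg-like cells (294 UMIs), a ratio of 0.736 (0.618 to 0.875). Both were highest in Treg-like cells in each library. The Itgb8 interval lay below 1 and the ratio did not reach 1.5-fold. An Itgb8 UMI was found in 11.8% of thinned Tdg_KO and 20.1% of thinned Tdg_WT Treg-like cells. The ratio was 1.05 after thinning to 1000 UMIs and 0.635 after thinning to 2000 UMIs.

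Nrp1 (chromosome 8, 128358604 to 128503363) encodes neuropilin-1, a semaphorin receptor and a marker of thymus-derived Treg cells in mice. Its highest class was CD4 T-like cells in both libraries, with 104 CPM in Tdg_KO and 69.7 CPM in Tdg_WT, against 74.6 CPM in Tdg_KO and 50.4 CPM in Tdg_WT Treg-like cells. The CD4 T-like level was 1.39 times the Treg-like level in Tdg_KO (1.18 to 1.64) and 1.38 times in Tdg_WT (1.13 to 1.70). CD8 T-like cells, with 62.7 CPM in Tdg_KO and 55.3 CPM in Tdg_WT, were not apart from Treg-like cells beyond counting error. Between libraries, its ratio was 1.48 in Treg-like cells (1.20 to 1.83) and 1.49 in CD4 T-like cells (1.27 to 1.74), each just under 1.5-fold. The ratio was 1.13 for CD8 T-like cells (0.916 to 1.41), while NK-like cells had 1.05 (0.809 to 1.37).

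**Figure D1:**
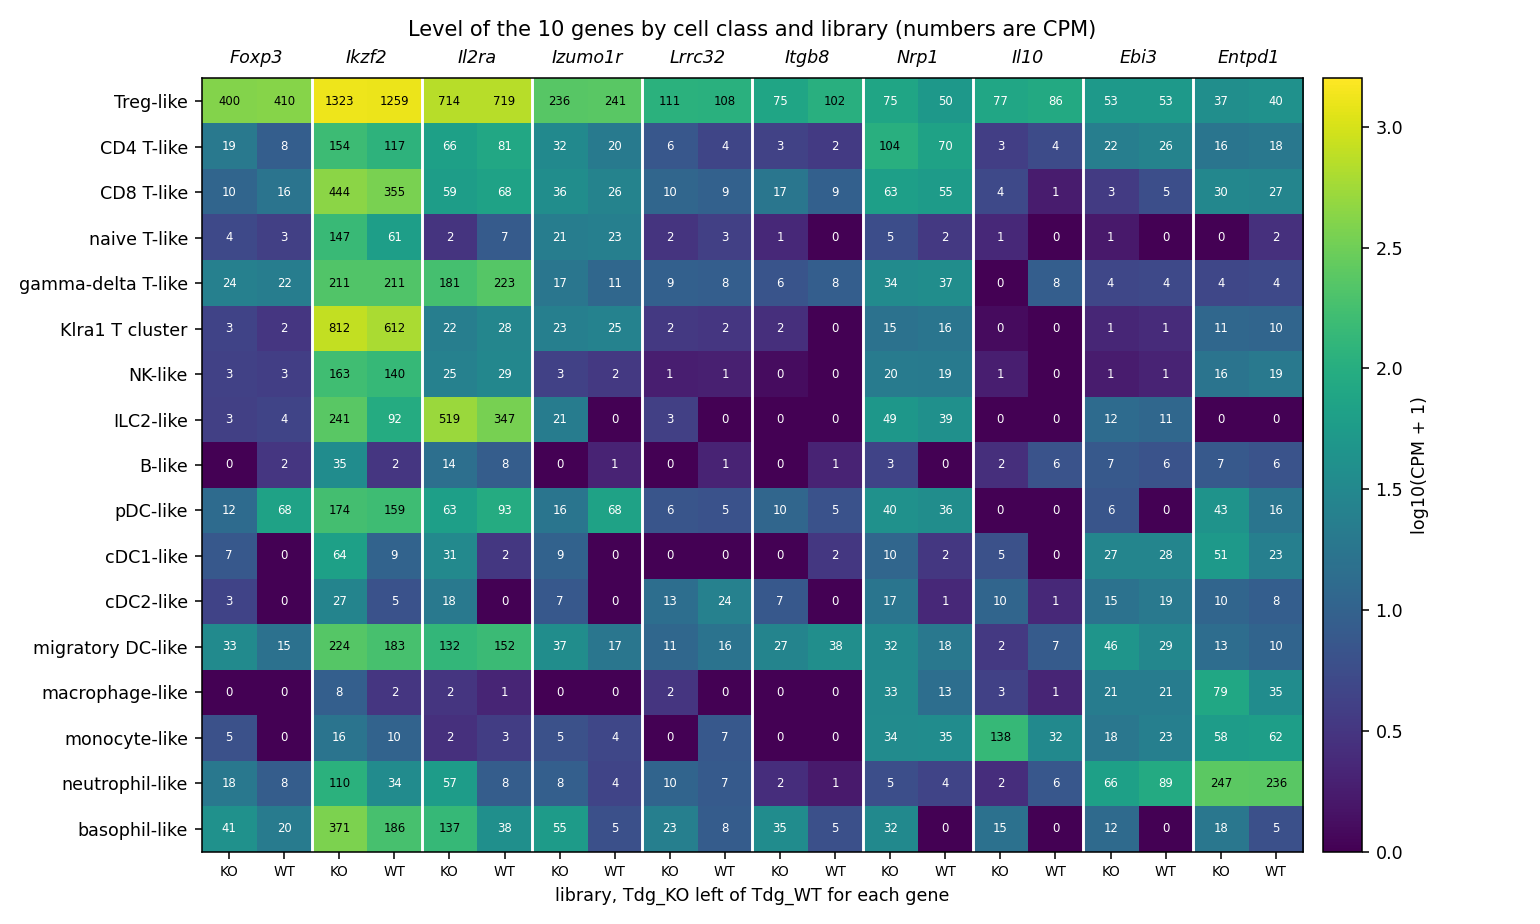
Level of each of the 10 genes by named cell class (rows) in the Tdg_KO and Tdg_WT libraries (columns), with the number in each tile in CPM and colour as log10(CPM + 1). Foxp3, Ikzf2, Il2ra, Izumo1r, Lrrc32 and Itgb8 are highest in Treg-like cells in both libraries, while Nrp1 is highest in CD4 T-like cells (104 CPM in Tdg_KO, 69.7 CPM in Tdg_WT) and Entpd1 in neutrophil-like cells (247 CPM in Tdg_KO, 236 CPM in Tdg_WT).

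The genes of the secreted and enzymatic arms, Il10, Ebi3 and Entpd1, were each also found in some myeloid classes. Il10 (chromosome 1, 131019845 to 131024974) encodes the inhibitory cytokine IL-10. It had 77.4 CPM in Tdg_KO (249 UMIs in 14.1% of cells) and 86.2 CPM in Tdg_WT Treg-like cells (248 UMIs in 17.8% of cells), a ratio of 0.898 (0.750 to 1.07). Monocyte-like cells had 138 CPM in Tdg_KO (78 UMIs in 15 of 63 cells) and 32.5 CPM in Tdg_WT (34 UMIs in 13 of 117 cells). A single barcode held 30.8% of those UMIs in Tdg_KO and 29.4% in Tdg_WT, and the class was too small to be compared between libraries. Il10 was low in macrophage-like cells (3.15 CPM in Tdg_KO, 1.12 CPM in Tdg_WT) and neutrophil-like cells (1.64 CPM in Tdg_KO, 6.33 CPM in Tdg_WT).

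Ebi3 (chromosome 17, 55952640 to 55957022) encodes a subunit that IL-35 and IL-27 share. It stood at 52.9 CPM in both Treg-like populations, with 170 UMIs in Tdg_KO and 152 UMIs in Tdg_WT, a ratio of 1.00 (0.799 to 1.25). After thinning to 2000 UMIs the ratio was 1.69. Neutrophil-like cells had 65.6 CPM in Tdg_KO and 88.7 CPM in Tdg_WT, and migratory dendritic-like cells had 45.9 CPM in Tdg_KO and 29.1 CPM in Tdg_WT, so Treg-like cells were not above neutrophil-like cells in either library. They were above migratory dendritic-like cells beyond the counting intervals in Tdg_WT, but not in Tdg_KO. The partner chains were nearly undetected in Treg-like cells: Il12a (the other chain of IL-35) had 2 UMIs in Tdg_KO and 1 in Tdg_WT, and Il27 had 0 in both.

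Entpd1 (chromosome 19, 40612366 to 40741602) encodes CD39, the ectoenzyme that hydrolyses ATP and ADP. It had 37.3 CPM in Tdg_KO and 39.99 CPM in Tdg_WT Treg-like cells, a ratio of 0.933 (0.716 to 1.22). Neutrophil-like cells were the highest class, with 247 CPM in Tdg_KO and 236 CPM in Tdg_WT. Nt5e encodes CD73, which completes the step from ATP to adenosine, and it was present in Treg-like cells at 149 CPM in Tdg_KO and 159 CPM in Tdg_WT. Treg-like cells held 7.73% of all Entpd1 UMIs in Tdg_KO and 9.38% in Tdg_WT.

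Between libraries, 0 of the 10 genes were at least 1.5-fold higher and 0 at least 1.5-fold lower in Tdg_KO Treg-like cells, among genes with at least 50 UMIs over both libraries. Of all 7526 genes measured in the class, 2.96% were at least 1.5-fold higher and 2.58% at least 1.5-fold lower. The median log2 ratio of the 10 genes was -0.02, against 0.01 over all genes measured. Nrp1 passed 1.5-fold in 6 alternatives, from 1.54 to 1.66, among them Treg cells gated by a Foxp3 UMI (1.55) and a stricter cell filter (1.66). Itgb8 passed it downward at 0.666 without barcodes that held Cd8a, Cd8b1 or Ncr1, an alternative added after the data were seen, and at 0.635 after thinning to 2000 UMIs.

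**Figure D2:**
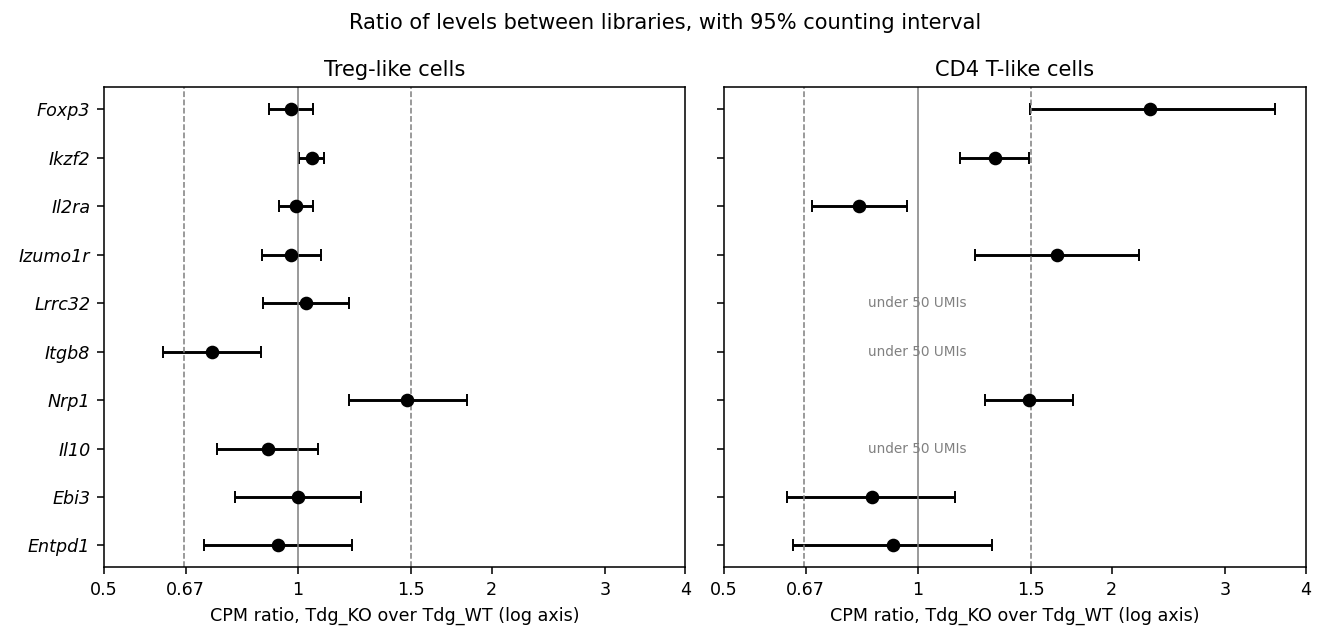
Ratio of CPM, Tdg_KO over Tdg_WT, for each gene in Treg-like cells (left) and CD4 T-like cells (right) on a log axis, with 95% counting intervals. Dashed lines mark 1.5-fold either way. In Treg-like cells all 10 points lie between 0.736 (Itgb8) and 1.48 (Nrp1), and in CD4 T-like cells Foxp3 (2.29) and Izumo1r (1.64) lie beyond the upper line.

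In CD4 T-like cells 2 of the 7 genes measured were at least 1.5-fold higher in Tdg_KO, where 4.41% of all genes measured were, and 0 were lower, where 2.05% were. Foxp3 had 18.6 CPM in Tdg_KO (69 UMIs in 29 of 654 cells) and 8.13 CPM in Tdg_WT (33 UMIs in 17 of 721 cells), a ratio of 2.29 (1.49 to 3.58). The cells with a Foxp3 UMI were 4.43% in Tdg_KO and 2.36% in Tdg_WT, at medians of 5256.5 UMIs in Tdg_KO and 5170 in Tdg_WT. NK-like cells, which should lack the gene, had a Foxp3 UMI in 1.33% of Tdg_KO and 1.32% of Tdg_WT cells, at medians of 5961 UMIs in Tdg_KO and 5421 in Tdg_WT. Naive T-like cells had one in 5 of 214 Tdg_KO and 3 of 264 Tdg_WT cells. CD8 T-like cells had one in 15 of 353 Tdg_KO and 18 of 303 Tdg_WT cells, and gamma-delta T-like cells in 10 of 169 and 6 of 111. At 23.7 CPM in Tdg_KO and 21.6 CPM in Tdg_WT, the gamma-delta T-like level was not below the CD4 T-like level. The CD4 T-like Foxp3 ratio was 1.22 when the 10 genes were let into the clustering and 1.40 under a stricter cell filter, so it did not reach 1.5-fold there. Izumo1r had 32.4 CPM in Tdg_KO and 19.7 CPM in Tdg_WT, a ratio of 1.64 (1.23 to 2.21), and Il2ra had 65.6 CPM in Tdg_KO and 80.8 CPM in Tdg_WT, a ratio of 0.812 (0.685 to 0.961). CD8 genes were found in 8.87% of Tdg_KO and 7.91% of Tdg_WT CD4 T-like cells. Leaving out barcodes with Cd8a, Cd8b1 or Ncr1 was among the 17 alternatives for this class, added after the data were seen. Over these alternatives the ratio ran from 1.22 to 2.34 for Foxp3, from 1.55 to 2.29 for Izumo1r and from 0.708 to 0.888 for Il2ra.

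The CD4 T-like class had 2 clusters, and the genes differed between them. In the cluster led by Tnfsf11 and Cxcr6, Ebi3 stood at 44.5 CPM in Tdg_KO and 42.5 CPM in Tdg_WT, and in the cluster led by Ramp3 and S1pr1 at 5.22 CPM in Tdg_KO and 9.44 CPM in Tdg_WT. Entpd1 followed the same order, with 29.4 CPM in Tdg_KO and 31.8 CPM in Tdg_WT in the first cluster and 6.64 CPM in Tdg_KO and 3.98 CPM in Tdg_WT in the second. Nrp1 was present in both, at 124 CPM in Tdg_KO and 92.4 CPM in Tdg_WT in the first and at 88.2 CPM in Tdg_KO and 46.7 CPM in Tdg_WT in the second.

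In CD8 T-like cells 1 of 8 genes measured was at least 1.5-fold higher in Tdg_KO, where 4.67% of all genes were, and 1 was lower, where 1.84% were. Itgb8 had 17.1 CPM in Tdg_KO (59 UMIs) and 8.53 CPM in Tdg_WT (23 UMIs), a ratio of 2.01 (1.22 to 3.40). Foxp3 had 10.2 CPM in Tdg_KO (35 UMIs) and 16.0 CPM in Tdg_WT (43 UMIs), a ratio of 0.637 (0.396 to 1.02). Both directions turned after thinning to 1000 UMIs, to 0.855 for Itgb8 and 1.28 for Foxp3, so neither ratio was stable at this depth.

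Beyond these classes, Entpd1 was the 1 gene measured in macrophage-like cells and was at least 1.5-fold higher in Tdg_KO, where 15.6% of all genes measured were and 6.03% were lower, with 78.7 CPM (75 UMIs) against 34.6 CPM in Tdg_WT (31 UMIs) and a ratio of 2.27 (1.48 to 3.57). The macrophage-like class had a cluster led by Apoe and C1qa, with 215 Tdg_KO and 104 Tdg_WT cells, and a cluster led by Arg1 and Spp1, with 65 Tdg_KO and 125 Tdg_WT cells. Entpd1 had 87.9 CPM in Tdg_KO and 57.1 CPM in Tdg_WT in the first, and 48.8 CPM in Tdg_KO and 17.6 CPM in Tdg_WT in the second. Entpd1 in neutrophil-like cells had a ratio of 1.05 (0.858 to 1.27).

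Ikzf2 was at least 1.5-fold higher in Tdg_KO neutrophil-like cells, where 16.6% of all genes measured were higher and 7.33% lower, and in naive T-like cells, where 5.85% were higher and 3.22% lower. The other genes measured in these classes, Ebi3 and Entpd1 in neutrophil-like cells and Izumo1r in naive T-like cells, did not pass 1.5-fold. In B-like cells, where 5.97% of all genes measured were higher and 4.29% lower, none of the 10 genes had 50 UMIs. Ikzf2 had 34.6 CPM in Tdg_KO (20 UMIs) and 2.20 CPM in Tdg_WT (2 UMIs) B-like cells. Macrophage-like cells had 8.39 CPM of Ikzf2 in Tdg_KO (8 UMIs) and 2.23 CPM in Tdg_WT (2 UMIs). No named class had a lower Ikzf2 level in Tdg_KO, although gamma-delta T-like cells had 211 CPM in both libraries. In neutrophil-like cells Ikzf2 had 110 CPM in Tdg_KO (67 UMIs) and 34.5 CPM in Tdg_WT (49 UMIs), a ratio of 3.18 (2.17 to 4.70), and a single barcode held 25.4% of the Tdg_KO UMIs. For Ikzf2, naive T-like cells had 147 CPM in Tdg_KO and 60.5 CPM in Tdg_WT, a ratio of 2.43 (1.91 to 3.11). That ratio ran from 0.630 to 7.10 over the alternatives and turned at resolution 0.5 of the clustering. Mixed barcodes were also more frequent in Tdg_KO. Keeping them in the class of their cluster was among 16 alternatives, over which the neutrophil-like Ikzf2 ratio ran from 1.77 to 3.84. Of the measured genes, 0 were past 1.5-fold in either direction in NK-like cells, gamma-delta T-like cells and the Klra1-led cluster, where 3.57%, 8.13% and 3.62% of all genes were higher and 1.40%, 2.96% and 1.82% lower.

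The share of each gene's UMIs that lay in Treg-like cells was smaller in Tdg_KO for all 10 genes. The same held for the UMIs of all genes together. Treg-like cells had 3216545 UMIs in Tdg_KO and 2875692 in Tdg_WT, of libraries with 52586319 and 39819010 UMIs before filtering. The direction was therefore not particular to the 10 genes. The size of the fall differed between them. Itgb8 had 242 of its 940 UMIs in Treg-like cells in Tdg_KO and 294 of 611 in Tdg_WT. Entpd1 had 120 of 1553 in Tdg_KO and 115 of 1226 in Tdg_WT. The size was not compared with that of the fall over all genes. For Foxp3 the Treg-like share was 35.8% in Tdg_KO and 50.7% in Tdg_WT. Mixed barcodes held 32.1% of Foxp3 UMIs in Tdg_KO and 24.8% in Tdg_WT, and the cluster with Treg markers and a second subset held 20.9% in Tdg_KO and 13.3% in Tdg_WT. Of 998 Tdg_KO barcodes with a Foxp3 UMI, 39.5% were Treg-like, and of 696 such Tdg_WT barcodes 53.4% were. Over all kept cells together Foxp3 had 68.7 CPM in Tdg_KO and 58.6 CPM in Tdg_WT, while the ratio within the Treg-like class was 0.976.

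**Figure D3:**
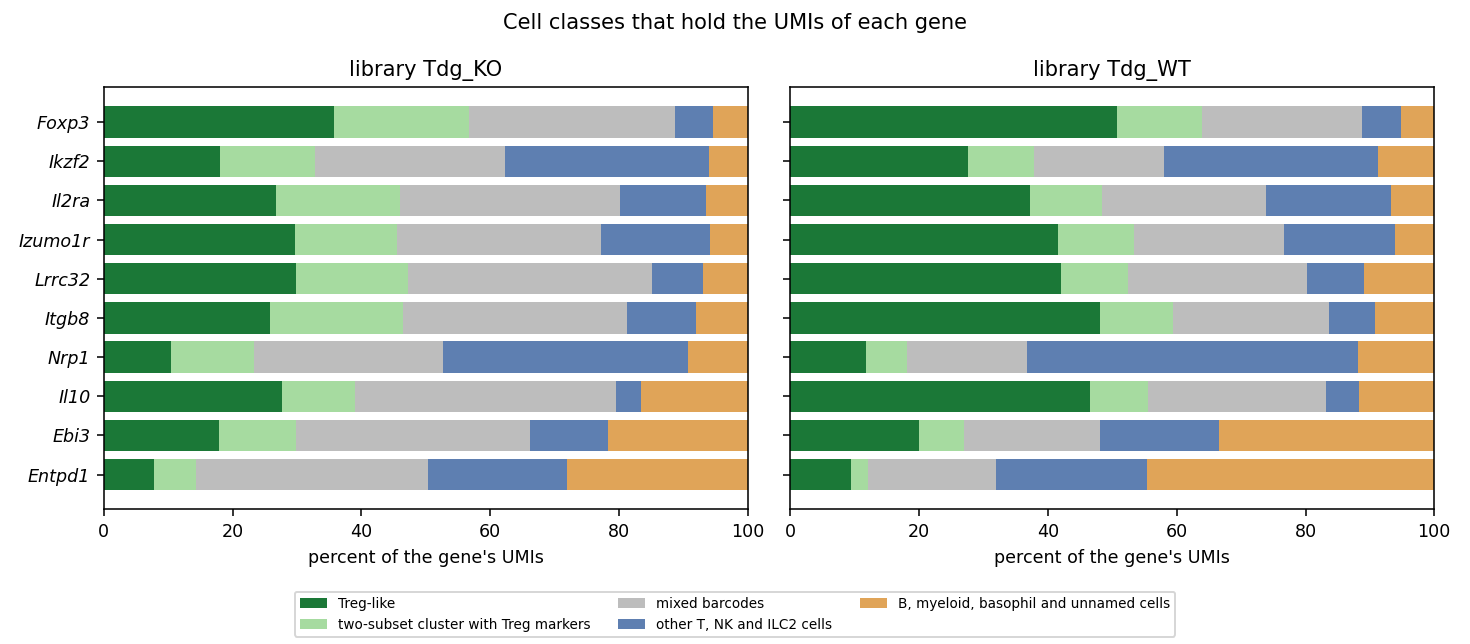
Percent of each gene's UMIs that lay in Treg-like cells, in the cluster with Treg markers and genes of a second lymphocyte subset, in mixed barcodes, and in other classes, for the Tdg_KO library (left) and the Tdg_WT library (right). Treg-like cells hold 35.8% of Foxp3 UMIs in Tdg_KO and 50.7% in Tdg_WT, and a smaller share of Nrp1 (10.4% in Tdg_KO, 11.7% in Tdg_WT) and Entpd1 (7.73% in Tdg_KO, 9.38% in Tdg_WT).

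At 2000 UMIs per cell, a Treg-like cell had a median of 3 of the 10 genes in each library, and 67.02% of Tdg_KO and 65.3% of Tdg_WT Treg-like cells had at least 3. Among CD4 T-like cells 2.86% in Tdg_KO and 1.29% in Tdg_WT had at least 3, and among CD8 T-like cells 4.01% in Tdg_KO and 1.36% in Tdg_WT. Treg-like cells with and without a Foxp3 UMI at this depth were set side by side for the 9 other genes. Ikzf2 was found in 88.6% with and 86.9% without one in Tdg_KO, and in 85.1% with and 86.8% without one in Tdg_WT. Il2ra was found in 64.6% with and 62.4% without in Tdg_KO, and in 70.7% with and 57.6% without in Tdg_WT. Lrrc32 was found in 18.7% with and 22.6% without in Tdg_KO, and in 25.2% with and 16.1% without in Tdg_WT. Itgb8 was found in 11.8% of either kind in Tdg_KO, and in 24.3% with and 15.6% without in Tdg_WT. For Il10 the shares were 12.6% with and 7.24% without in Tdg_KO, and 12.6% with and 9.76% without in Tdg_WT, and for Izumo1r 33.3% with and 31.7% without in Tdg_KO, and 37.8% with and 29.8% without in Tdg_WT. The counting intervals with and without a Foxp3 UMI overlapped for all 9 genes in both libraries, but overlap does not show that the shares were equal. For Il2ra in Tdg_WT they only just overlapped, at 64.3% to 76.6% with and 50.5% to 64.4% without. The difference between libraries was not tested.

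Within the Treg-like class the genes did not move as 1 block. The class was clustered without the 10 genes into 8 clusters, of which the cluster led by Lag3, Gzmb and Ccl4 (60 Tdg_KO and 78 Tdg_WT cells) was singled out after its values were seen. Il10 stood there at 299.9 CPM in Tdg_KO and 159 CPM in Tdg_WT, against 55.9 CPM in Tdg_KO and 73.1 CPM in Tdg_WT in the other Treg-like cells. Itgb8 stood at 265 CPM in Tdg_KO and 211 CPM in Tdg_WT there, against 56.9 CPM in Tdg_KO and 82.5 CPM in Tdg_WT in the other cells. It was the highest of the 8 clusters for Il10 in both libraries and for Itgb8 in Tdg_KO, while in Tdg_WT the cluster led by Hspa1b had more Itgb8, 237 CPM.

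Il2ra, Izumo1r and Entpd1 were also higher in that cluster, by 2.26, 2.55 and 3.76 times in Tdg_KO and by 1.78, 1.97 and 3.18 times in Tdg_WT. Foxp3 differed less, by 1.502 times in Tdg_KO and 1.36 times in Tdg_WT. Lrrc32 was at 1.09 times the level of the other cells in Tdg_KO (0.741 to 1.55) and 1.83 times in Tdg_WT (1.39 to 2.37). Ebi3 was at 1.23 times in Tdg_KO (0.707 to 2.003) and 2.04 times in Tdg_WT (1.39 to 2.95). In the cluster that shared the most cells with it at resolution 2, Ebi3 was at 0.595 times in Tdg_WT. Nrp1 ran the other way, at 0.311 times the level of the other Treg-like cells in Tdg_KO (7 UMIs) and 0.366 times in Tdg_WT (9 UMIs). For Il2ra, Itgb8 and Nrp1 the opposite end was the cluster led by S1pr1, a receptor that guides exit from tissue, and Ms4a4b. This did not hold for every gene. Entpd1 had 19.7 CPM in Tdg_KO and 25.1 CPM in Tdg_WT there. The C1qbp-led cluster had less, 12.7 CPM in Tdg_KO and 14.3 CPM in Tdg_WT (3 UMIs each). The S1pr1-led cluster had 336 CPM of Il2ra in Tdg_KO and 373 CPM in Tdg_WT, and 13.1 CPM of Itgb8 in Tdg_KO and 18.3 CPM in Tdg_WT. Of the 8 clusters it had the highest Nrp1, 111 CPM in Tdg_KO and 105 CPM in Tdg_WT. Foxp3 in that cluster was 419 CPM in Tdg_KO and 450.2 CPM in Tdg_WT, near the class mean. The cluster led by Bhlhe40 had the highest Ikzf2 in Tdg_KO, 1857 CPM, with 1673 CPM in Tdg_WT.

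These differences describe clusters made from the same cells and were not tested. At other resolutions the cluster that shared the most cells with the one described was used, whichever genes led it. At resolution 0.5 it had 388 cells, 133 of them shared, and at resolution 2 it had 61 cells, 39 of them shared. At resolution 2 Il10 was 3.50 times the level of the other cells in Tdg_KO and 3.93 times in Tdg_WT. Over 3 alternatives, these matched clusters and a run without the top barcode of each gene, the Itgb8 ratio ran from 2.04 to 4.39 in Tdg_KO and from 1.46 to 2.47 in Tdg_WT. The Entpd1 ratio ran from 1.86 to 3.53 in Tdg_KO and from 2.97 to 4.66 in Tdg_WT, and the Foxp3 ratio from 1.05 to 1.41 in Tdg_KO and from 1.03 to 1.32 in Tdg_WT. The Nrp1 ratio ran from 0.276 to 0.545 in Tdg_KO and from 0.101 to 0.308 in Tdg_WT. The cluster led by Cd8a, with medians of 10776.5 UMIs in Tdg_KO and 12612.5 in Tdg_WT, had 128 CPM of Cd8a in Tdg_KO and 131 CPM in Tdg_WT. CD8 genes were found in 14.3% of Tdg_KO and 13.1% of Tdg_WT Treg-like cells.

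**Figure D4:**
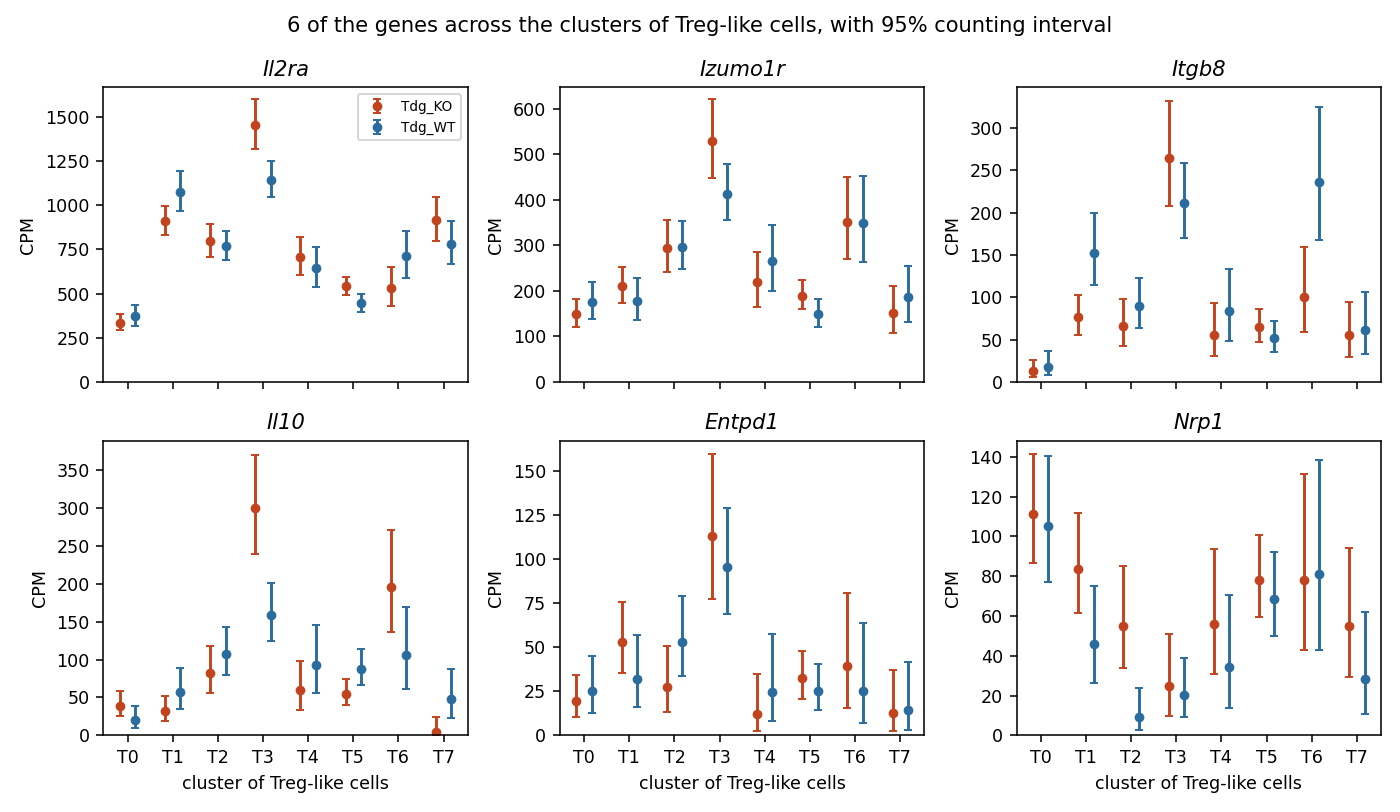
CPM of 6 genes in the 8 clusters of Treg-like cells, made without the 10 genes, with 95% counting intervals, in Tdg_KO (left point of each pair) and Tdg_WT (right point). T3 is led by Lag3, T0 by S1pr1, T1 by Bhlhe40, T2 by Ccr1, T4 by Epcam, T5 by Cd8a, T6 by Hspa1b and T7 by C1qbp. T3 is high for Il2ra, Izumo1r, Itgb8, Il10 and Entpd1 and low for Nrp1 in both libraries.

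Genes that act with the 10 were read from lists of 67 symbols, of which 55 had at least 50 UMIs in Treg-like cells. Of these, 0 were at least 1.5-fold higher in Tdg_KO, where 2.96% of all genes measured in the class were, and 3 were at least 1.5-fold lower, where 2.58% were. Their median log2 ratio was -0.03, against 0.01 over all genes measured. Gzmb, a cytotoxic granule protease that activated Treg cells also make, had 667 CPM in Tdg_KO and 1134 CPM in Tdg_WT, a ratio of 0.589 (0.557 to 0.622). The Treg-like clusters with Gzmb among their leading genes took smaller shares of the class in Tdg_KO: the Ccr1-led cluster held 12.1% in Tdg_KO and 17.6% in Tdg_WT, and the Lag3-led cluster 12.3% in Tdg_KO and 16.7% in Tdg_WT. Their part in the ratio was not tested. Satb1, a chromatin organiser that acts before Foxp3 in Treg development, had 171 CPM in Tdg_KO and 270.2 CPM in Tdg_WT, a ratio of 0.634 (0.567 to 0.708). Foxo3, a forkhead factor, had 20.5 CPM in Tdg_KO and 36.9 CPM in Tdg_WT, a ratio of 0.557 (0.403 to 0.764).

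By function, 7 genes of the IL-2 pathway were measured and none passed 1.5-fold, with Il2rb (the IL-2 receptor beta chain) at 512 CPM in Tdg_KO and 453 CPM in Tdg_WT, and Il2rg (the common gamma chain) at 505 CPM in Tdg_KO and 542 CPM in Tdg_WT. Il2 itself, under the 50-UMI limit in the class and named after its values were seen, had 5.29 CPM in Tdg_KO and 4.87 CPM in Tdg_WT Treg-like cells, against 28.1 CPM in Tdg_KO and 44.8 CPM in Tdg_WT CD4 T-like cells. All 7 TGF-beta genes were measured and none passed, with Smad7, an inhibitor of TGF-beta signalling, at 775 CPM in Tdg_KO and 737 CPM in Tdg_WT. Itgav, the partner chain of Itgb8, was named after its values were seen and stood at 505 CPM in Tdg_KO and 526 CPM in Tdg_WT. The IL-10 list had 5 genes measured and none past the limit, among them Maf, a driver of Il10, at 543 CPM in Tdg_KO and 634 CPM in Tdg_WT. Of 15 other Treg markers measured, Gzmb passed the limit, and Tnfrsf4, the costimulatory receptor OX40, had 2057 CPM in Tdg_KO and 2237 CPM in Tdg_WT, a ratio of 0.920 (0.889 to 0.952). Of the 14 Ikaros family and Foxp3 partner genes measured, Satb1 and Foxo3 passed it, and Rora, a nuclear receptor, had 967 CPM in Tdg_KO and 947 CPM in Tdg_WT. The lists for Ebi3, Entpd1, Nrp1 and Izumo1r had 7 genes measured in all and none past the limit, with Il27ra, the IL-27 receptor, at 62.2 CPM in Tdg_KO and 60.5 CPM in Tdg_WT, Sema4a, a semaphorin, at 10.9 CPM in Tdg_KO and 11.8 CPM in Tdg_WT, and Cd9, a tetraspanin, at 20.5 CPM in Tdg_KO and 24.7 CPM in Tdg_WT.

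Over the 20 sums of 10 classes by 2 libraries, the gene whose log2 level was most like that of Foxp3, of 7319 compared, was Lrrc32 (Pearson r 0.958), and Itgb8 was among the first 10 (0.916). The remaining 8 were Slc26a2, Sdcbp2, Ncmap, Sv2c, Frmd5, Tnfrsf4, Cast and Slc25a51, with r from 0.932 down to 0.885. Genes most like Izumo1r were Ikzf4 (0.934), which encodes the Ikaros family factor Eos, Cd5 and Sv2c. For Ikzf2 they were Tmem158, Cd27 and Abca2 (0.924 to 0.919), for Il2ra they included Tap2 and Anp32a (0.930 and 0.926), and for Lrrc32 Foxp3, Itgb8 and Slc26a2 (0.958 to 0.903). For Itgb8 they were Neb, Ncmap and Foxp3 (0.940 to 0.916), for Nrp1 S100a13, Arf5 and Glud1 (0.945 to 0.924), and for Il10 Neb, Rln3 and Tank (0.843 to 0.817). For Ebi3 they were Grb2, Slc15a3 and Slc36a3os (0.938 to 0.914), and for Entpd1 Gnb2, Vamp8 and Slc8b1 (0.924 to 0.921). The sums share libraries and depths, so these values are a description.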

How the data were processed

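For each gene and barcode the authors deposited an unnormalised UMI count, made with Cell Ranger 6.0.1 per the file headers. The build is mm10, and Seurat is also named, per the submitters' processing notes. The kept cells had at least 200 genes and no more than 10% of UMIs from mitochondrial genes. Barcodes with at least 3 genes of each of 2 lineage lists were set aside as mixed, and no doublet caller was used. Cells were clustered in scanpy 1.11.5 (2000 variable genes without the 10 genes, 30 components, 15 neighbours, Leiden resolution 1), then lymphoid cells and mononuclear phagocytes again. A cluster was named from marker lists where its 10 leading genes held at least 2 of its markers. It stayed unnamed where 40% of its barcodes were mixed or, among lymphoid clusters, 25% held genes of 2 subsets. These limits were set over 3 rounds with the clusters in view. Unnamed clusters other than the Klra1-led one held 672 Tdg_KO and 534 Tdg_WT cells.

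The Treg-like class had 3216545 UMIs in Tdg_KO and 2875692 in Tdg_WT. Intervals are exact: Poisson for CPM, conditional for ratios and Clopper-Pearson for shares. No p-value is given, since each group has 1 library. The ratio was checked on simulated independent Poisson counts, so this check does not cover UMIs that gather in few barcodes. Genes with at least 50 UMIs over both libraries were called measured. Promoters came from RefSeq and gene positions from GENCODE vM21. Named genes were the 10 genes, of each partner list the gene with the highest CPM in Treg-like cells and those past 1.5-fold, the 10 genes most like Foxp3 in pattern and the 3 most like each other gene, of which 1 is not reported here. The genes, lists and limits were chosen with earlier results of these data known. Alternatives were other filters, resolutions, scalings, gates and thinning.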

Additional observations from a re-analysis of the deposited data

Results flagged for a closer look

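The ratio of Foxp3 CPM, Tdg_KO over Tdg_WT, was 2.29 in CD4 T-like cells and 0.637 in CD8 T-like cells, in opposite directions past 1.5-fold. With 1 library per genotype the difference was not tested. The CD4 T-like ratio was 1.22 with the 10 genes in the clustering and 1.40 under the stricter cell filter, short of 1.5-fold. The CD8 T-like interval (0.396 to 1.02) held 1, and that ratio turned to 1.28 after thinning to 1000 UMIs.

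Foxp3 was also frequent in barcodes that the named classes leave out. Of mixed barcodes, 42.1% in Tdg_KO and 37.3% in Tdg_WT had a Foxp3 UMI. In the cluster with Treg markers and genes of a second lymphocyte subset the shares were 78.1% in Tdg_KO and 74.5% in Tdg_WT. B-like cells, a class without Foxp3, had 0% in Tdg_KO and 0.866% in Tdg_WT. The mixed barcodes had medians of 17382 UMIs in Tdg_KO and 16852 in Tdg_WT, and after thinning to 2000 UMIs 12.6% of them in Tdg_KO and 12.2% in Tdg_WT had a Foxp3 UMI.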

How the results depend on the processing

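The share of Foxp3 UMIs in Treg-like cells was 35.8% in Tdg_KO and 50.7% in Tdg_WT. It was 56.6% in Tdg_KO and 64.0% in Tdg_WT with the cluster of Treg markers and 2 subsets kept, 57.3% in Tdg_KO and 64.4% in Tdg_WT at clustering resolution 0.5, and 29.9% in Tdg_KO and 40.8% in Tdg_WT without barcodes with Cd8a, Cd8b1 or Ncr1. In Tdg_KO it was also 38.7% with the 10 genes in the clustering and 39.6% under the stricter filter (500 genes, 5% mitochondrial). It stayed lower in Tdg_KO in these pairs. The ratio of Treg-like shares of cells was 1.20 with the 2-subset cluster kept and 1.19 at resolution 0.5. The number of genes at least 1.5-fold higher in Treg-like cells was 1 in place of 0 in 7 alternatives: a Foxp3 UMI gate, the 2-subset cluster kept, the 10 genes in the clustering, resolution 0.5, the stricter filter and thinning to 1000 UMIs (Nrp1), and thinning to 2000 UMIs (Ebi3). The number lower was 1 after thinning to 2000 UMIs and without barcodes with Cd8a, Cd8b1 or Ncr1 (Itgb8). Among ratios past 1.5-fold, directions turned for Ikzf2 in naive T-like cells (0.630 at resolution 0.5). They also turned for Foxp3 (1.28) and Itgb8 (0.855) in CD8 T-like cells at 1000 UMIs. The direction also turned for Ebi3 in Tdg_WT in the cluster matched to the Lag3-led Treg cluster (0.595 at resolution 2). The cause was not tested. Of values for single genes under an alternative, 726 lay within the counting interval of the main value, 63 lay outside it and 4 turned. A turn was counted only where the main ratio was past 1.5-fold. Other values that crossed 1 are therefore not among the 4, such as Itgb8 in Treg-like cells (0.736, up to 1.05). No paired analysis was possible because each genotype has 1 library. Outside Treg-like cells Itgb8 and Foxp3 rested on few UMIs (in CD8 T-like cells 59 in Tdg_KO and 23 in Tdg_WT for Itgb8).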

Other observations

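Within NK-like cells, 3 of the genes lay highest in the cluster led by Gzmc and Klrb1b. Ikzf2 stood there at 279 CPM in Tdg_KO and 263 CPM in Tdg_WT, Il2ra at 52.6 CPM in Tdg_KO and 62.2 CPM in Tdg_WT, and Nrp1 at 40.8 CPM in Tdg_KO and 40.1 CPM in Tdg_WT. In the larger NK-like cluster led by Gzma and Klra4, Ikzf2 had 106 CPM in Tdg_KO and 61.5 CPM in Tdg_WT. Entpd1 was highest in the third NK-like cluster, led by Gzma, Ccl5 and Prf1, with 60.6 CPM in Tdg_KO and 71.1 CPM in Tdg_WT.

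CD8 T-like cells split in a similar way. The cluster led by Cd8a and Ccr7 had 666 CPM of Ikzf2 in Tdg_KO and 554 CPM in Tdg_WT, and 95.1 CPM of Nrp1 in Tdg_KO and 95.7 CPM in Tdg_WT. The cluster whose leading genes include Nkg7 and Gzmk had 40.9 CPM of Entpd1 in Tdg_KO and 37.0 CPM in Tdg_WT, against 9.02 CPM in Tdg_KO and 4.97 CPM in Tdg_WT in the cluster led by Cd8a and Ccr7.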
